A study of Mus musculus with 7 samples.

Results

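Resting Th1 cells were set against the naive CD4+ T helper cells they were grown from, by the positions that BRG1 occupied on chromatin. Of the 7 libraries of the series, 3 carry this comparison: the BRG1 library of resting Th1 cells, the BRG1 library of naive cells and the input library of DNA taken without immunoprecipitation. They were chosen by their labels, and each group is 1 library, so the contrast has no replicate check and no p-value is given. The 4 remaining BRG1 libraries (resting Th2, and Th1, Th2 and Th17 cells stimulated with PMA and ionomycin for 1.5 h) served as outside measurements. Every difference given below is a difference between single libraries.

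BRG1, encoded by Smarca4, is an ATPase that drives SWI/SNF (BAF) chromatin remodelling complexes, which slide or evict nucleosomes at promoters and enhancers. Naive helper T cells that receive antigen receptor signals together with IL-12 become Th1 cells, a route that runs through STAT4 and the transcription factor T-bet and ends in interferon-γ production. Remodelling by BRG1 complexes is known to take part in opening the genes of helper T cell subsets. A ChIP-seq read count reports how much DNA the antibody recovered at a position and does not measure transcription.

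All cells came from Balb/C mice aged 4 to 6 weeks, and no group carries an engineered allele. The naive group was CD4+CD62L+ cells of spleen and lymph nodes, 95% pure by the labels, used without culture. The resting Th1 group was made from such cells in a single round of culture: plate-bound anti-CD3 at 1 µg/ml and anti-CD28 at 2 µg/ml, IL-12 at 1 ng/ml and anti-IL-4 at 10 µg/ml. IL-2 at 100 U/ml joined after 24 h, and the cells were expanded in IL-2 from day 3. Resting Th2 cells were grown likewise but with IL-4 at 10 ng/ml and anti-IFNγ at 10 µg/ml in place of IL-12 and anti-IL-4. Th17 cells were grown with soluble anti-CD3 (4 µg/ml) and anti-CD28 (1 µg/ml), both blocking antibodies (10 µg/ml), TGF-β (1 ng/ml), IL-6 (100 ng/ml) and IL-1β (10 ng/ml), and expanded with IL-23 (10 ng/ml). For stimulation, ionomycin was used at 500 ng/ml together with 50 ng/ml PMA. Culture, receptor stimulation, IL-2 and IL-12 all separate the groups, so their parts cannot be told apart. In bulk chromatin, more BRG1 per cell and more cells bound at a site cannot be told apart either. The labels give the purity of the starting cells and none for the finished Th1 culture, and they do not say how many mice were pooled. The input was pooled DNA of CD4+ T helper cells.

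Both libraries were shallow. The naive library held 3533175 reads and the resting Th1 library 2529147, and after reads that repeated a position and strand were removed 2071800 and 1808000 distinct reads remained. Repeats made up 41.4% of naive, 28.5% of resting Th1 and 7.23% of input reads. The offset between plus and minus strand reads, a measure of fragment length, was greatest at 135 bp in naive, 100 bp in resting Th1 and 95 bp in input. Library, repeat share and fragment length thus differ together with the cell state, and their part in the results below was not tested. Levels are given as RPM, reads per 1000000 distinct reads of a library. Positions are on mm9. No annotation of that build was used here, so regions are named by position alone, no gene is assigned to them and the labelled cell types could not be set against marker genes.

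Far more of the genome passed as bound in resting Th1 than in naive cells at the same depth. With every BRG1 library thinned to 1340208 reads, 7065 regions were called in resting Th1 and 3104 in naive, a ratio of 2.28. Nearly all were narrow: the median region was 200 bp wide and the widest 1000 bp in both libraries. Resting Th1 regions held 5.23% of all distinct resting Th1 reads (95% interval 5.20 to 5.26), 6.53-fold the input density. Naive regions held 2.06% of naive reads (2.04 to 2.08), 4.83-fold the input density. Of the naive regions, 51.1% (49.3 to 52.8) met a resting Th1 region by at least 1 bp, and 22.4% of the resting Th1 regions met a naive one. These and all later 95% intervals cover counting error only, because without replicate libraries no spread between samples can be estimated. Reads without molecular identifiers are not independent molecules, so the intervals may be too narrow even for counting error. With repeated reads kept the call counts were 18068 and 17003, so most of the excess of resting Th1 regions was lost, and the share of naive regions that met a resting Th1 one fell to 20.6%.

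At the level of single regions, with repeats removed, most calls ran towards resting Th1. The regions of all 6 BRG1 libraries were joined into 26293 regions, of which 9644 held at least 10 reads in the pair. Calls needed an RPM ratio of 3-fold in either direction with an exact interval that left out 1. By this rule 1522 regions (15.8% of those tested) were higher in resting Th1 and 79 (0.819%) were lower. The intervals were not adjusted for the 9644 regions tested, so counting error alone can yield some calls. How many of the calls, and of the 79 lower ones above all, are of this kind was not tested. Of the higher ones, 1335 were called in resting Th1 and not in naive (32.7% of 4080 tested), so the high library helped to choose them. The ratio lay above 1 in 77.1% of tested regions, its median was 1.60, and the middle of the distribution ran from 1.04 at the lower quartile to 2.67 at the upper. Repeats and scale both matter to this split. With repeated reads kept, 5099 regions were higher and 1523 lower. Divided by the median ratio, a shift of 0.68 on the log2 scale, the ratios gave 566 higher (5.87%) and 386 lower (4%) regions. Divided instead by the ratio in 10 kb bins that held no region, 0.920, they gave 1775 higher (18.4%) and 57 lower (0.591%).

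**Figure D1:**
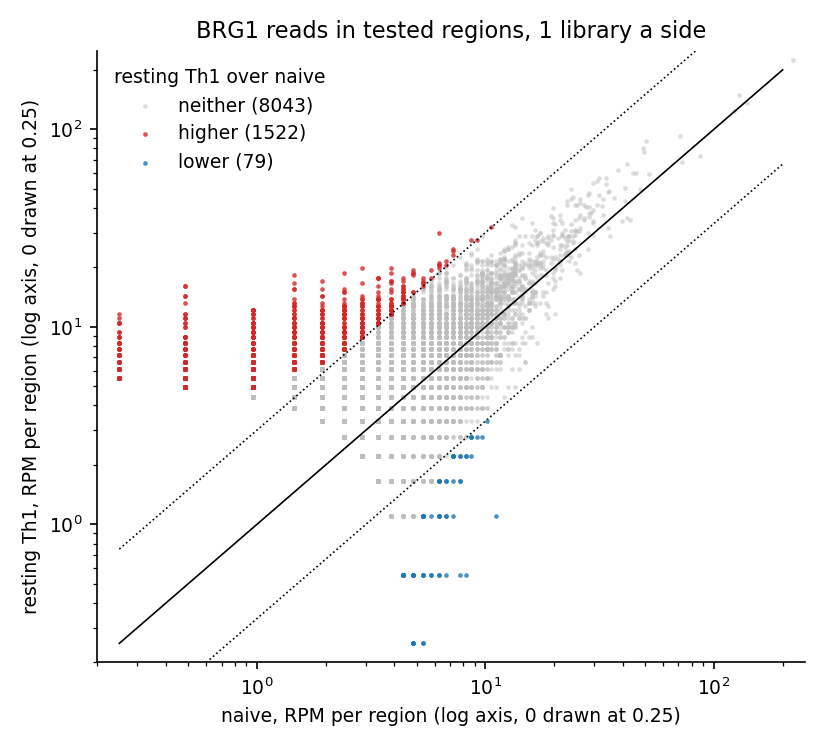
BRG1 reads per region in naive (horizontal axis) and resting Th1 (vertical axis), both in RPM on log axes with 0 drawn at 0.25, for the 9644 tested regions. The solid line marks equal RPM and the dotted lines a 3-fold difference; 1522 higher calls (red) and 79 lower calls (blue) lie on or beyond the dotted lines, where regions with wide intervals stay uncalled (grey), and the strongest regions sit near the solid line.

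Split by reads in the pair, which also chose many of the regions, weak and strong regions had unlike ratios. Among the 3269 regions with 10 to 14 reads in the pair the median ratio was 2.01. Of them, 651 (19.9%) were higher and 43 (1.32%) lower, against 15.8% and 0.819% of all tested regions. Among the 466 regions with 50 to 99 reads the median was 1.38, with 12 (2.58%) higher and 0 lower. The 84 regions with 100 or more reads had a median of 1.35 and a lower quartile of 1.19, and none of them was called in either direction. Regions chosen without the pair gave a second view, though not an even one. All outside libraries came from cultured cells, as resting Th1 did, and none from naive cells. Sites bound in naive cells alone are thus left out, which can tilt this set towards resting Th1. The 4 outside libraries alone defined 23609 regions, of which 7889 were tested. Of these, 1136 (14.4%) were higher in resting Th1 and 33 (0.418%) lower, and the median ratio was 1.53. The minimum of 10 reads still rests on the pair, and without it the pooled ratio over all 23609 regions was 1.58 (1.57 to 1.60). Ordered by their mean RPM in the outside libraries and split into 4 equal parts, a split added after the data were examined, these regions had pooled ratios of 1.69, 1.88, 1.64 and 1.51 from weakest to strongest. The strongest part thus had the lowest ratio, but the ratio did not fall steadily with strength.

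Where both libraries had passed the caller, they mostly had like levels, which passing the same threshold in both favours. In the 1702 regions called in both, of which 1701 were tested, the median ratio was 1.30 and the lower quartile 1.03. Of these, 21 (1.23%) were higher and 0 lower, against 15.8% higher of all tested regions. The 5 strongest shared regions were picked by the lesser RPM of the pair where it exceeded 3 times the input, which also favours like levels. The first, on chromosome 11 from 3093001 to 3093800, had 267 reads in naive, 270 in resting Th1 and 146 in input, a ratio of 1.16 (0.975 to 1.38). With repeats kept these counts were 1441, 1500 and 657, so most reads there were repeats. The ratio of distinct reads need not hold for them. Its input level of 41.3 RPM was the highest of the 5, and the others had 4.81 to 9.06 RPM in input. On chromosome 1, 46910201 to 46910800, naive had 148 reads, resting Th1 167 and input 22, a ratio of 1.29 (1.03 to 1.62). A region of chromosome 3, 94819201 to 94820600, held 108 naive and 107 resting Th1 reads, at a ratio of 1.14 (0.861 to 1.50). Ratios of distinct reads in these 3 regions were thus close to 1, and 2 of the intervals included it. The other two were somewhat higher in resting Th1. That of chromosome 17, 57170401 to 57171800, held 105 naive and 158 resting Th1 reads (1.72-fold, 1.34 to 2.23). That of chromosome 11, 96838601 to 96839400, held 103 and 139 (1.55-fold, 1.19 to 2.02). All 5 also held 86 or more reads in resting Th2 and 199 or more in each stimulated library.

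The 11 highest regions, ranked by the lower end of their interval with a tie at the end, held 17 to 29 resting Th1 reads and at most 1 naive read. They differed in what the outside libraries held. A first kind was also occupied in resting Th2 and in stimulated cells. On chromosome 12, 55394201 to 55394600, naive had 1 read, resting Th1 29 and resting Th2 25, and stimulated Th1, Th2 and Th17 had 64, 61 and 53, against 4 in input. The ratio of resting Th1 to naive was 33.2 (5.51 to 1357). The region on chromosome 11, 117193401 to 117193800, had the same pair of counts and the same ratio. Resting Th2 had 18 reads there, stimulated Th1, Th2 and Th17 had 32, 17 and 32, and input had 3. On chromosome 6, 40841001 to 40841600, naive had 1 read and resting Th1 26, a ratio of 29.8 (4.89 to 1221), with 21 in resting Th2 and 1 in input. Another, at 60998601 to 60999200 of chromosome 13, repeated that pair of counts, and resting Th2 had 14 reads there, stimulated Th17 66 and input 3. In these 4 regions naive had the lowest RPM of the 6 BRG1 libraries, on a single read each.

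Other regions of this kind had no naive read at all. On chromosome 1, 36217201 to 36217400, naive had 0 reads, resting Th1 20, resting Th2 11 and input 4, while stimulated Th1, Th2 and Th17 had 44, 53 and 53. Against a floor of 3 counts per library, used wherever a library has 0 reads, that is at least 7.64-fold higher in resting Th1, with an exact lower end of 5.66. On chromosome 3, 101721601 to 101722000, naive had 0, resting Th1 17 and resting Th2 20 reads, at least 6.49-fold higher (exact lower end 4.73), with 5 reads in input. The 1800 bp region on chromosome 2 from 101636601 to 101638400 stood apart by its input. It had 19 reads in resting Th1, 15 in resting Th2 and 303 in stimulated Th1, but also 19 in input, and 0 in naive. Resting Th1 was 1.95-fold above the input there, and the naive count lay below the input level of 5.38 RPM.

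In a second kind, no stimulated library exceeded 2.55 RPM and input had no read, while resting Th2 ranged from no read to a level near that of resting Th1. One, 93744001 to 93744200 of chromosome 15, held 19 resting Th1 reads, none in naive, resting Th2 or input, and 4, 2 and 7 in stimulated Th1, Th2 and Th17. That is at least 7.26-fold higher than naive (exact lower end 5.35), and the 19 reads fell as 7 on the plus and 12 on the minus strand. With so few reads elsewhere, resting Th1 itself largely placed this region among those tested. The region of chromosome 7 from 129078001 to 129078200 also held 19 resting Th1 reads and 0 naive ones. Resting Th2 had 6 there, input 0 and stimulated Th1, Th2 and Th17 1, 2 and 9. At 116897401 to 116898000 of chromosome 12 the resting libraries held 17 (Th1, 9.40 RPM) and 10 (Th2, 7.46 RPM) reads, naive and input none and stimulated Th1 2. At 74773401 to 74773800 of chromosome 11 resting Th1 had 21 reads, resting Th2 6, stimulated Th1 10 and naive and input 0, at least 8.02-fold higher than naive (exact lower end 5.97). Stimulated Th1, with 3917492 distinct reads, was the deeper library, so in RPM it lay further below resting Th1 than these counts show. In all 11 regions the resting Th1 reads came from both strands, as in 98.7% of all tested regions with at least 5 resting Th1 reads.

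**Figure D2:**
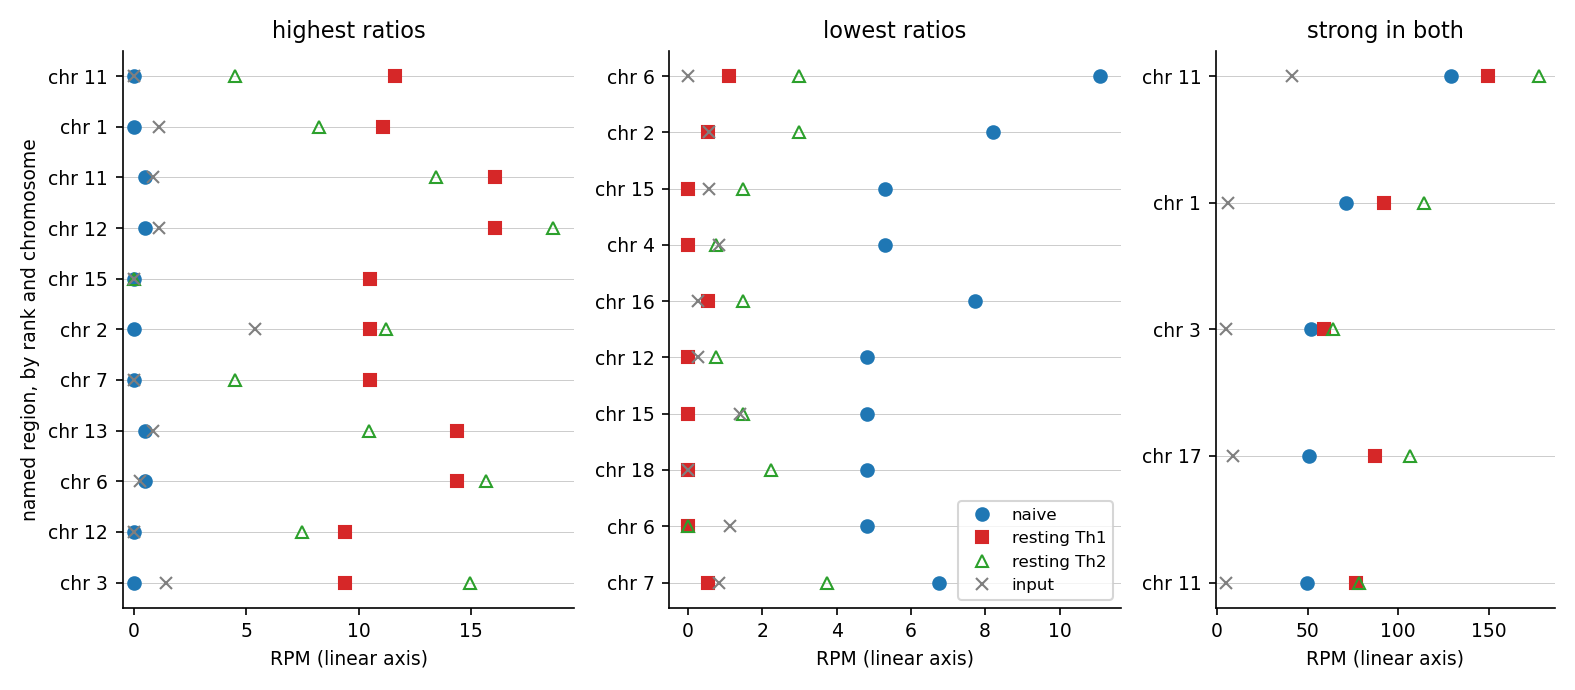
Levels in RPM (horizontal, linear axis with a scale of its own in each panel) of the named regions in naive, resting Th1, resting Th2 and input, 1 row per region in rank order and marked by chromosome. Resting Th1 lies at 9.40 to 16.0 RPM and naive at 0 to 0.483 in the left panel, naive at 4.83 to 11.1 and resting Th1 at 0 to 1.11 in the middle panel, and both stand above input in the right panel.

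Regions lower in resting Th1 were few and rested on fewer reads. The 10 lowest held 10 to 23 naive reads and at most 2 resting Th1 reads. On chromosome 6, 99339201 to 99339600, naive had 23 reads (12 on the plus and 11 on the minus strand), resting Th1 2, resting Th2 4 and input 0. Naive was 10.0-fold higher (2.48 to 87.8), and stimulated Th1, Th2 and Th17 had 10, 4 and 8 reads. On chromosome 2, 34760801 to 34761000, naive had 17 reads and resting Th1 1, 14.8-fold higher in naive (2.32 to 620), with 4 in resting Th2. On chromosome 16, 91538601 to 91539000, naive had 16 and resting Th1 1, 14-fold higher in naive (2.17 to 586), with 2 in resting Th2 and 1 in input. The last, at 132724601 to 132724800 of chromosome 7, held 14 naive reads and 1 resting Th1 read, 12.2-fold higher in naive (1.86 to 517). In RPM these 4 regions were higher in naive than in either resting library.

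In the other 6 of the 10, resting Th1 had no read. The region on chromosome 15 from 72983401 to 72984000 had 11 reads in naive, 0 in resting Th1 and 2 in resting Th2, and 49, 43 and 76 in stimulated Th1, Th2 and Th17. Naive was at least 3.20-fold higher than resting Th1 there (exact lower end 2.19). On chromosome 4, 15885401 to 15885600, naive also had 11 reads, resting Th1 0 and resting Th2 1, with 14, 15 and 23 in the stimulated libraries. The regions on chromosome 12 from 109170201, chromosome 15 from 57525001, chromosome 18 from 38282801 and chromosome 6 from 28373401 had 10 naive reads each, at least 2.91-fold higher than resting Th1 by the floor of 3 counts, with an exact lower end of 1.96. Occupancy in stimulated cells thus varied widely among the lower regions, from 1 to 49 reads in stimulated Th1. With repeated reads kept, each of the 21 regions named for a high or low ratio was still called in the same direction, and the 11 higher ones were also called with ratios divided by their median. All 21 had been picked as the most extreme ratios, which favours both outcomes, so neither is added support. Where a library had no distinct read it also had none with repeats kept, so keeping repeats could hardly undo those calls.

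The outside libraries show how the called sets behave beyond the pair that chose them. In the 1522 higher regions resting Th2 had a median of 5.97 RPM, equal to its median over all tested regions, and a density 7.02-fold the input (6.80 to 7.25), against 4.37-fold over all tested regions. Stimulated Th1 reached 6.26-fold (6.08 to 6.44) against 4.50-fold over all, stimulated Th2 5.72-fold against 4.03-fold and stimulated Th17 3.53-fold against 2.38-fold. Input was lower in these regions than in general, with a median of 0.566 RPM against 1.13, which bears on every density over input. The median RPM of each stimulated library was below its value over all tested regions. It was 4.34 against 5.87 in stimulated Th1, 4.22 against 5.40 in stimulated Th2 and 2.53 against 3.17 in stimulated Th17. For the pair itself, which fixed the choice, the densities were 8.33-fold in resting Th1 and 1.55-fold in naive.

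In the 79 lower regions, naive stood at 5.16-fold the input and resting Th1 at 0.962-fold, again by choice. Resting Th2 stood at 2.57-fold (2.20 to 3.01), against 4.37-fold over all tested regions, and so lay between the libraries of the pair. Stimulated Th1 stood at 3.94-fold (3.50 to 4.45) and stimulated Th2 at 3.49-fold (3.09 to 3.94). In 33 of these regions resting Th1 lay below the input level, 41.8% against 2.97% of all tested regions. Of the higher regions, naive lay below the input in 459, 30.2% against 9.32% of all tested, and had no read in 118. Both shares follow in part from choosing regions for a low library.

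Among stimulated cells, the median ratio of Th1 to Th2 did not set the higher regions apart from regions in general. The median ratio of stimulated Th1 to stimulated Th2, 2 libraries outside the pair, was 1.09 in the 1382 higher regions with at least 10 reads there, 1.09 in 69 lower regions and 1.09 in 9220 tested regions. That value is the RPM ratio of any region with equal read counts in both libraries. Medians of small whole counts can all fall on it, so they cannot show that the balance is the same. For stimulated Th1 over stimulated Th17 the median was 1.71 in higher, 1.89 in lower and 1.86 in all tested regions.

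Which outside libraries had called a region went with the ratio. Among regions called in resting Th2 and in no stimulated library, 291 of 1429 (20.4%) were higher in resting Th1 and 3 lower, with a pooled ratio of 1.89 (1.85 to 1.93). Among regions called in 1 stimulated library alone, 141 of 1621 (8.70%) were higher and 14 lower, with a pooled ratio of 1.41 (1.38 to 1.43). Regions called in 2 stimulated libraries alone had 88 of 1000 higher (8.80%) and 7 lower. Regions called in resting Th2 and all 3 stimulated libraries had 120 of 749 higher (16.0%) and 2 lower, and those called in the 3 stimulated libraries alone 54 of 313 (17.3%) and 1 lower. Regions called in resting Th2 and 1 or 2 stimulated libraries had 442 of 2777 higher (15.9%) and 6 lower. The shares of these last 3 classes lay near those of all tested outside regions, 14.4% higher and 0.418% lower. Occupancy over input followed another order. Resting Th1 stood at 6.69-fold the input and naive at 4.25-fold in regions of resting Th2 and all stimulated libraries, and at 2.29-fold and 1.63-fold in regions of 1 stimulated library. In regions of resting Th2 alone, where the ratio was greatest, they stood at 4.30-fold and 2.28-fold.

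For regions of the outside libraries, read profiles round the centres gave a view that does not depend on a ratio threshold. Round the 23609 regions of the outside libraries, resting Th1 had 9.39 RPM per kb within 200 bp of the centre and 1.39 beyond 1.5 kb, a 6.78-fold rise. Naive rose from 1.05 to 6.14 RPM per kb, 5.86-fold, and input from 0.734 to 2.81, 3.83-fold. Flank and centre were thus both higher in resting Th1 than in naive, and input was itself raised at the centres. The outside libraries were all of cultured cells, so sites bound in naive cells alone are missing from this profile. The higher and lower regions were chosen by the ratio rule, so the profiles of the pair round them follow in part from that choice. Round the higher regions the naive profile still rose 3.91-fold, close to the 3.70-fold of input. Round the lower regions resting Th1 rose 4.08-fold and input 5.81-fold. The plus strand gave 49.6% of resting Th1 reads in the higher regions and 49.4% of naive reads in the lower ones, so neither set leaned to 1 strand.

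**Figure D3:**
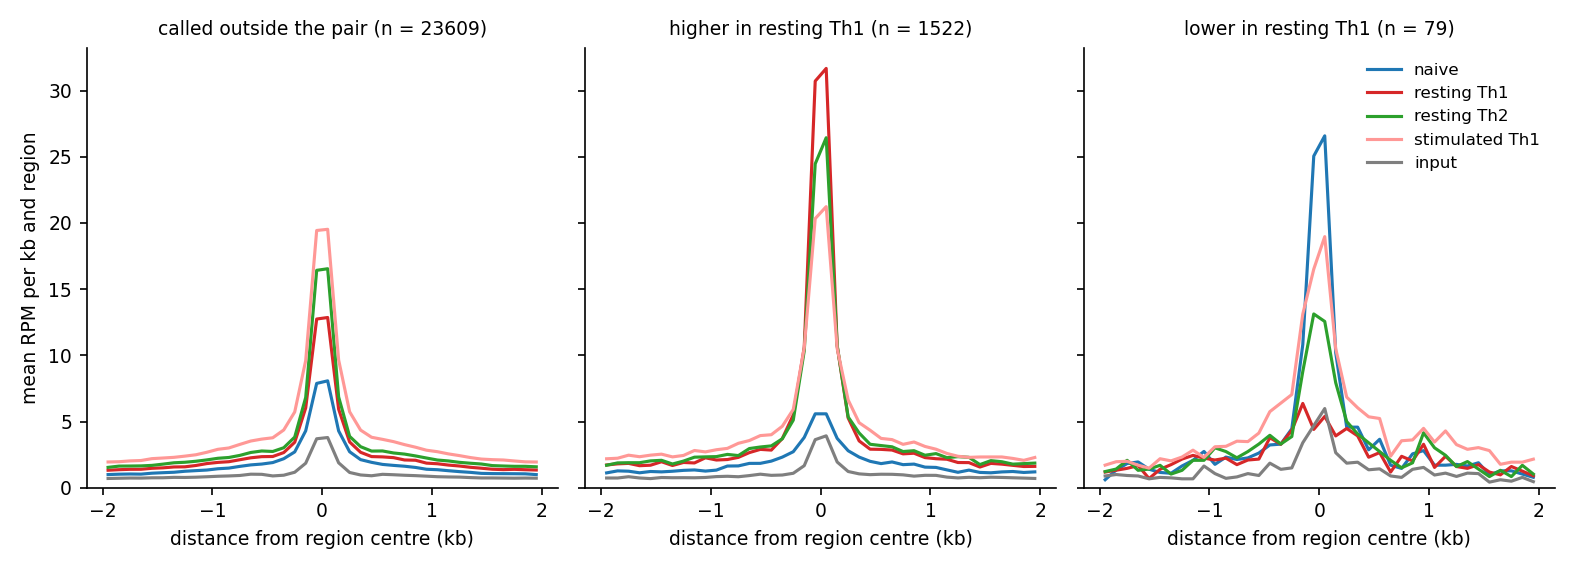
Mean BRG1 reads (RPM per kb and region, 100 bp steps) by distance from the region centre in kb, for regions called in the 4 libraries outside the pair (left), higher in resting Th1 (middle) and lower in resting Th1 (right). At the centres resting Th1 lies above naive in the left and middle panels and near input in the right one; the middle and right panels were chosen by the pair, so their pair curves differ by choice.

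Higher regions came in runs at some places. With gaps of up to 50 kb allowed, 37 runs held 3 or more higher regions, 119 regions in all (7.82% of the higher ones), and no run of lower regions reached 3. By the same rule 4710 (48.8%) of all 9644 tested regions lay in runs. Runs form more readily among more regions, and there were 1522 higher and 79 lower ones. These shares therefore cannot show whether higher or lower regions cluster more or less than tested regions in general. The largest, on chromosome 11 from 117104201 to 117211000, held 17 tested regions, of which 7 were higher and 0 lower. Over its whole 106.8 kb naive had 360 reads, resting Th1 586, resting Th2 449 and input 329, a ratio of resting Th1 to naive of 1.87 (1.63 to 2.13). Within it the ratios ran from 1.27 at 117187001 to 33.2 at 117193401. A region at 117153801, with 18 reads in naive and 37 in resting Th1, stayed under the 3-fold rule at 2.36 (1.31 to 4.40). The run was strongly occupied after stimulation, with stimulated Th1 at 668 RPM, stimulated Th2 at 483 and input at 93.2.

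A run of 4 higher among 5 tested regions on chromosome 2, 169956601 to 169994800, had a ratio of 2.07 (1.64 to 2.63) over 38.2 kb, from 114 naive and 206 resting Th1 reads. A run of 4 among 10 on chromosome 19, 4113801 to 4191200, had 265 and 374 reads, a ratio of 1.62 (1.38 to 1.90). Another 4 among 10 on chromosome 10, 79451001 to 79517000, had 251 and 329 reads, a ratio of 1.50 (1.27 to 1.78). On chromosome 7, 87699801 to 87792600, by contrast, all 4 tested regions were higher while the whole 92.8 kb had 189 and 194 reads, a ratio of 1.18 (0.958 to 1.44). Over that whole length a difference was not detectable at this depth.

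At the scale of megabases, the RPM ratio over 2499 bins of 1 Mb had a median of 0.947 and an SD of 0.23 on the log2 scale. With no second library of either state, the spread that replicates would show is not known. The ratio followed how many regions the 4 outside libraries, all of cultured cells, had in a bin. It had a median of 0.832 in the 1015 autosomal bins with 0 to 3 regions, 0.968 with 4 to 8, 1.06 with 9 to 19 and 1.13 in the 438 bins with 20 to 97. Resting Th1 exceeded naive in 4.04% of the first group of bins and in 91.1% of the last. With every 10 kb bin that touched a region left out, the pooled ratio still ran from 0.835 (0.832 to 0.838) to 1.02 (1.02 to 1.03). In the 10 kb bins that were kept, naive stood at 1.05-fold the input in region-poor bins and at 0.823-fold in region-rich ones, and resting Th1 at 0.880-fold and 0.840-fold. In the region-poor bins, which the outside libraries themselves define, the median over input was 0.747 in resting Th2 and 0.50 in stimulated Th1.

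**Figure D4:**
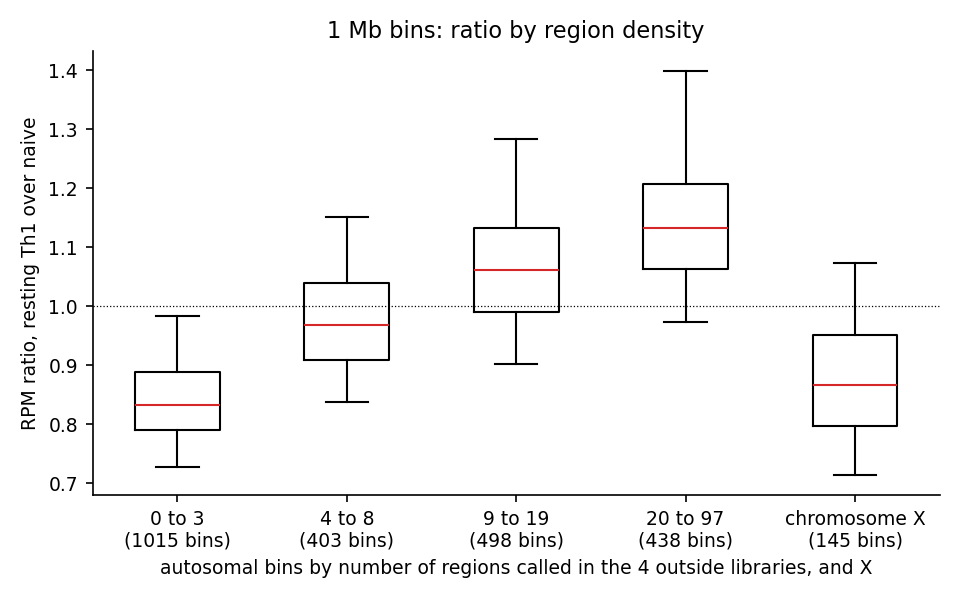
Ratio of RPM, resting Th1 over naive, in 1 Mb bins grouped by the number of regions called in the 4 libraries outside the pair, with chromosome X apart. Boxes span the quartiles with the median as a red line and whiskers reach the 5 and 95 percentiles; the medians are 0.832, 0.968, 1.06 and 1.13 from few to many regions, and 0.866 on X.

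By chromosome the ratio of total reads ran from 0.957 on chromosome 18 to 1.11 on chromosome 19 among the 19 autosomes and was 0.891 (0.882 to 0.899) on chromosome X. X held 4.43% of naive, 3.95% of resting Th1 and 4.21% of input reads. The median ratio of tested regions lay between 1.49 and 1.77 on every autosome and at 1.15 on X. There 17 of 148 regions (11.5%) were higher and 0 lower, against 12.8% to 21.3% higher on the autosomes. In region-free 10 kb bins the ratio was 0.868 on X and 0.923 on autosomes. The labels do not give the sex of the mice.

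The stretch that stood furthest from this pattern was in distal chromosome 12. Only 12 of the 1 Mb bins (0.48%) reached 1.5-fold in favour of resting Th1 and 5 (0.2%) in favour of naive. The 2 with the highest ratios were neighbours, 115000001 to 116000000 at 1.74 (1.57 to 1.92) and 116000001 to 117000000 at 2.09 (1.91 to 2.29), though they held only 5 and 7 outside regions. The stretch was singled out after its values were seen. Over both bins naive had 1406 reads, resting Th1 2370, resting Th2 1079 and input 2131. Levels were 1311 RPM in resting Th1, 805 in resting Th2, 679 in naive and 603 in input, and resting Th1 was the highest of the 7 libraries.

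Here resting Th1 stood 2.17-fold above the input (2.05 to 2.30), resting Th2 1.33-fold (1.24 to 1.44) and naive 1.12-fold (1.05 to 1.20). Stimulated Th1 was at 0.991-fold the input, stimulated Th2 at 0.768-fold and stimulated Th17 at 0.527-fold. The ratio of resting Th1 to naive over the stretch was 1.93 (1.81 to 2.06), 1.91 from plus strand reads, 1.96 from minus strand reads and 1.94 with repeated reads kept. In the 2 Mb just before it the ratio was 1.05 (0.994 to 1.11), and in the 2 Mb just after it 1.19 (1.11 to 1.28). In 100 kb bins, 18 of 20 lay above 1 and 16 reached 1.5, against 10 and 1 of 20 in the 2 Mb before and 10 and 5 of 20 in the 2 Mb after. The first 8 bins after the stretch all lay above 1, from 1.11 to 2.18, so the raised ratio did not end at its edge. The ratio was largest, 3.44, in the bin from 116500001 to 116600000.

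Of 17 tested regions in the stretch 13 were higher in resting Th1 and 0 lower, 76.5% against 15.8% of all tested regions. The reads counted here also chose the stretch, and resting Th1 helped to define its regions. The share, sums and ratios in it are thus not added support. The 13 had 10 to 26 reads in resting Th1 and 0 to 6 in naive, and 173 against 20 in sum, with 68 in resting Th2, 85 in stimulated Th1 and 18 in input. The strongest by reads, 116843201 to 116843400, had 26 in resting Th1 and 6 in naive, a ratio of 4.97 (2.00 to 14.8), with 14 in resting Th2. The region from 116897401, named above with 17 resting Th1 and 10 resting Th2 reads, is among them. At 115853601 to 115854400, 22 naive and 37 resting Th1 reads gave a ratio of 1.93 (1.11 to 3.43), under the rule. Outside the called regions the stretch was raised as well: in its 176 region-free 10 kb bins resting Th1 had 1525 and naive 1034 reads, a ratio of 1.69 (1.56 to 1.83).

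**Figure D5:**
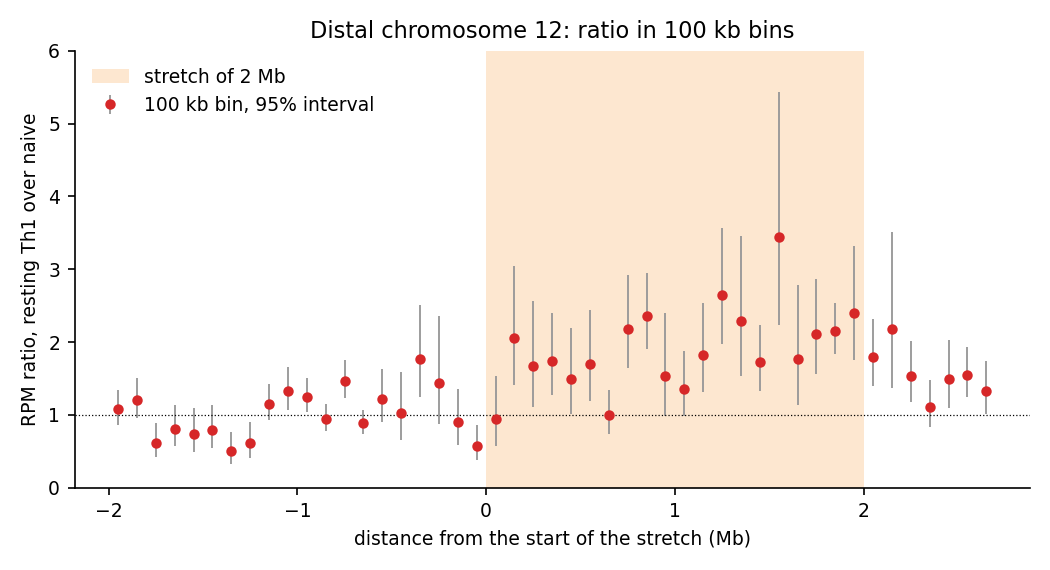
Ratio of RPM, resting Th1 over naive, in 100 kb bins of distal chromosome 12 by distance in Mb from the start of the 2 Mb stretch (shaded), with 95% counting intervals as bars. Inside the stretch 18 of 20 bins lie above 1, against 10 of 20 in the 2 Mb before it, and the bins just after it also lie above 1. The stretch was chosen for its high ratio.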

How the data were processed

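ChIP-seq reads of BRG1 (antibody J1) were measured in 6 libraries, with 1 input library. Per the labels, chromatin was crosslinked with formaldehyde, treated with MNase and sonicated, and the DNA was amplified over 18 cycles and size-selected at 250 to 300 bases. The authors deposited aligned reads of 34 bases, 1 line each, with no count or signal; per the submitters' processing notes the build was mm9, and the aligner is not given in the sources used here.

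From these, 1 read per 5′ end and strand was kept, chromosome Y was dropped and ends were moved by 75 bp. Windows of 200 bp were called where the Poisson tail fell below 1e-05, the expectation being the genome mean or, if larger, the scaled input in 1, 5 or 10 kb, with gaps of 1 window bridged, then counted with all distinct reads. Ratios have conditional exact 95% intervals, and percentages Clopper-Pearson intervals. Named were the 10 highest and 10 lowest called regions by the interval end nearest 1 (ties kept) and the 5 strongest shared ones. Megabase bins needed 0.3 times the median input. Gene lists and motifs that had been planned were not used, for want of an mm9 annotation. The members, lists and rules were chosen with earlier results of these data known; runs, bins and profiles were added after the data were examined. Scripts used Python 3.11.15, numpy 2.4.6 and scipy 1.17.1 and were tested on simulated data.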

Additional observations from a re-analysis of the deposited data

How the results depend on the processing

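With 1 library a side, no alternative measures the spread between samples. No paired analysis was possible because each group has a single library. Higher regions numbered 1522 and lower 79, and higher calls outnumbered lower ones under every setting run. Kept repeats gave 5099 and 1523, at least 20 reads in the pair 443 and 12, division by the median ratio 566 and 386, plus strand reads alone 394 and 14, and minus strand reads alone 418 and 10. Lower regions numbered 36 with windows called at 1e-07 and 33 in regions of the 4 outside libraries. The median ratio of 1.60 became 1.61 with repeats kept, 1.43 with 20 reads, 1.72 at 1e-07, 1.76 in regions of the pair alone, 1.53 in regions of the outside libraries and 1.74 after division by the region-free ratio. It became 1.62 with each library moved by 0.5 of its own strand offset and 1.57 where both libraries held 0.5 times the input or more, and 1 by construction after division by itself. Naive regions numbered 17003 with repeats kept, 5400 with all distinct reads and 1287 at 1e-07, and resting Th1 regions 18068 and 3797 in the first and last of these. The share of naive regions met by a resting Th1 region was 20.6%, 53.3% and 57.3% in that order. The stricter read minimum and the single strands leave fewer reads or regions to call; otherwise the cause was not tested. The settings by strand, strand offset and input were added once the data had been seen. Alternatives for listed genes were not run.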
